A study of Mus musculus with 12 samples.

Results

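Metabotropic glutamate receptors are the G protein-coupled receptors for glutamate, and 6 of their genes (Grm2, Grm3, Grm4, Grm5, Grm7 and Grm8) were followed here in the mouse amygdala. The members were picked by gene symbol, through the Ensembl identifiers of the deposited table, with no measured value in the rule. They are 6 of the 47729 genes in the table, and all 6 passed the minimum of 10 reads in total over 11 mice that 26963 genes passed.

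Glutamate is the main excitatory transmitter of the brain, and the metabotropic receptors tune its synapses more slowly than the ion channel receptors do. Group I receptors, Grm5 among them, couple through Gq to phospholipase C, sit mostly on the postsynaptic side and are tethered by Homer proteins. Group II (Grm2 and Grm3) and group III (here Grm4, Grm7 and Grm8) couple through Gi/o, lower cyclic AMP and mostly act on the presynaptic side to restrain transmitter release. Grm3 is also made by glial cells. In the amygdala, a center for threat learning and anxiety, these receptors have long been studied for fear memory.

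The study asked how the amygdala transcriptome varies with anxiety-like behavior among near-identical inbred animals. Bilateral amygdalae of 12 untreated female C57/BL6 mice were sequenced, 1 stranded mRNA library per mouse, on 1 run with single-end reads of 75 bp. The same mice had been tested on the elevated plus maze at 9 weeks of age, in a light/dark box at 10 weeks and in a 3-chamber social test at 11 weeks. The labels give a predicted anxiety state to 11 mice, namely less anxious (3 mice, numbered 3, 7 and 12), anxious (4 mice, 1, 4, 8 and 11) and more anxious (4 mice, 2, 6, 9 and 10), and none to mouse 5. The authors formed these states from tertiles of the PC2 score, the second principal component of the same expression data, so a test of any gene between the groups is not independent of how the groups were made. The behavior measures were recorded apart from the RNA, and the labels do not follow them in every mouse. Of the 12 mice, the more anxious mouse 6 had the highest open-arm time (29.2%), time in the light (46.6%) and distance in the light (41.9%). The more anxious mice 2, 10 and 9 had the lowest open-arm times (2.33, 3.25 and 4.30%). All groups share strain, sex and handling, and none carries a transgene or a treatment.

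Total estimated counts ran from 31745630 to 45142355 per mouse. Markers of the central amygdala (Prkcd, Sst, Tac2 and Crh, summed at 211 to 489 CPM, which are counts scaled to 1 common library total) and of the basolateral amygdala (Rspo2, Lypd1 and Etv1, at 314 to 719 CPM) were present in all 11 mice. Striatal-type markers (Drd1, Drd2, Adora2a, Ppp1r1b and Rgs9) stood highest in mouse 12 at 418 CPM and mouse 7 at 276 CPM, both less anxious, against 84.8 to 233 CPM in the other mice. In bulk tissue, fewer cells of a type and less RNA per cell cannot be told apart.

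All 6 genes are protein-coding in GENCODE M21, which uses the GRCm38 build that the authors' mm10 corresponds to. Grm5 lies on chromosome 7 from 87584168 to 88134907 on the plus strand. Grm2 lies on chromosome 9 from 106643095 to 106656082 and Grm3 on chromosome 5 from 9485541 to 9725170, both on the minus strand. Grm4 lies on chromosome 17 from 27422387 to 27521403 on the minus strand. Chromosome 6 holds both Grm7, from 110645581 to 111567230 on the plus strand, and Grm8, from 27275119 to 28135178 on the minus strand. Exons of Grm2 overlap the antisense gene Gm28111, which had 0 to 3 counts per mouse. Exons of Grm7 overlap the antisense gene Gm20387, which had 37 to 90 counts against 1824 to 3005 for Grm7. Exons of Grm8 overlap the microRNA gene Mir592 on the same strand, which had 0 counts. Whether the counting used the strand is not given in the sources used here, so reads of the antisense pairs may be shared.

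Grm5, the group I receptor among the members, had the highest level per length, at 20.6 ± 2.27 CPM per kb of merged exons (SD, n = 11). Grm7, the most widespread presynaptic group III receptor, followed at 11 ± 1.34 CPM per kb, then the group II receptors Grm3 at 9.0 ± 1.34 and Grm2 at 7.42 ± 1.23 CPM per kb. The group III receptors Grm4 and Grm8 were the lowest, at 2.63 ± 0.524 and 1.97 ± 0.438 CPM per kb. The widest steps in the order were from Grm5 to Grm7 and from Grm2 to Grm4. Grm5 lay above Grm7 in 11 of 11 mice, Grm2 lay above Grm4 in 11 of 11, and in both steps the mean ± SD ranges were apart. Between Grm7 and Grm3, Grm3 and Grm2, and Grm4 and Grm8 the mean ± SD ranges overlapped, although the higher gene was higher within the same mouse in 10, 10 and 11 of 11 mice. The exceptions were mouse 7 for Grm7 and Grm3, and mouse 9 for Grm3 and Grm2. Reads were estimated per transcript, and the members differ in how long their untranslated ends are annotated. With the mean length of coding transcripts in place of merged exons, Grm5 (39.4 CPM per kb) and Grm7 (31.9) stayed first and second, but Grm2 (12.1) then stood above Grm3 (9.0), and Grm8 (8.31) above Grm4 (4.44).

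**Figure D1:**
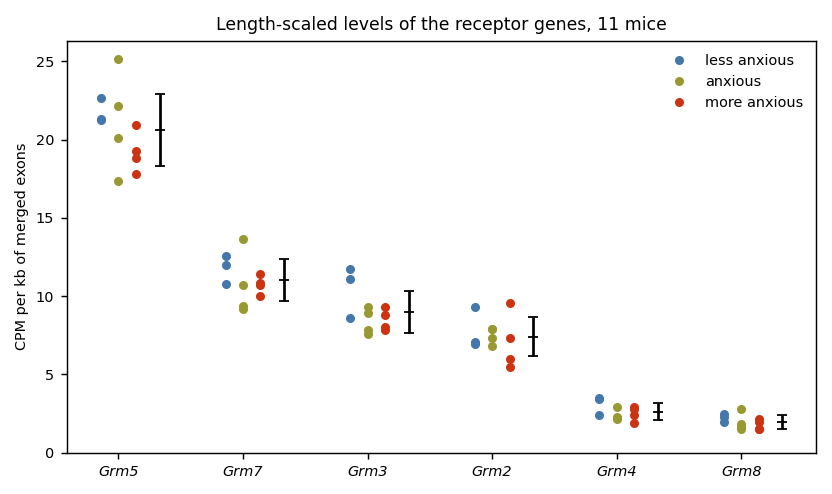
CPM per kb of merged exon length for the 6 receptor genes, with 1 point per mouse colored by anxiety group and the mean ± SD of 11 mice in black. Grm5 averaged 20.6 CPM per kb, and the values step down to 1.97 for Grm8, with all 11 mice of Grm4 and Grm8 below every mouse of the other genes.

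On the same length-scaled CPM, Grm5 made up 39.2 ± 3.37% of the summed level of the 6 members (SD, n = 11). The group II receptors took 31.2 ± 2.94%, of which Grm3 was 17.1 ± 1.72% and Grm2 14.1 ± 2.25%. The group III receptors took 29.6 ± 2.16%, with Grm7 at 20.9 ± 1.78%, Grm4 at 4.98 ± 0.717% and Grm8 at 3.72 ± 0.566%. These shares depend on the length used. With coding transcript lengths the order of the groups turned, with group III at 42.4 ± 2.67%, Grm5 at 37.5 ± 3.25% and group II at 20.1 ± 2.27%, and Grm3 then took 8.55 ± 0.958% and Grm8 7.83 ± 1.14%. On merged exons the composition was close across the mice of different anxiety states, with Grm5 at 38.1 ± 2.64% in the less anxious (n = 3), 40.6 ± 4.47% in the anxious (n = 4) and 38.6 ± 2.97% in the more anxious mice (n = 4). The summed level of the 6 genes was 55.1 to 58.8 CPM per kb in the less anxious, 45.1 to 58.7 in the anxious and 47.0 to 51.5 in the more anxious mice. The less and the more anxious mice did not overlap in this sum, which was not tested. The anxious mice covered the whole more anxious and most of the less anxious range. Grm5, the largest part of the sum, also did not overlap between these groups, so the sum is not a separate result. The sum was taken on merged exons only, and no share over other genes was counted for it.

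The spread between mice ran against the level per kb of merged exons. On CPM, or per kb of coding transcripts, Grm2 varied more than the lower Grm3, and Grm8 more than the lower Grm4. Grm5 and Grm7 varied least, with coefficients of variation of CPM of 11% and 12.2%, and Grm4 and Grm8 most, with 19.9% and 22.2%. Grm3 (14.8%) and Grm2 (16.6%) lay between. From the lowest to the highest mouse, Grm5 spanned 1.45-fold and Grm8 1.89-fold. edgeR's estimate of variation beyond counting error, the biological coefficient of variation, was 20.1% for Grm8 against 16.5% for genes of its level and 17.2% for Grm2 against 14.7%, while the other 4 members lay below the value for genes of their level.

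No receptor gene passed an adjusted p of 0.05 in any comparison of the anxiety groups, and all 6 fitted log2 fold changes between more and less anxious mice were below 0. The lowest p-values were those of Grm3 and Grm4. In the test of any difference among the groups (the quasi-likelihood F-test of edgeR, with the PC1 score as a covariate and Benjamini-Hochberg adjustment over 26963 genes), 0 of 6 members were called, where 0.00742% of all genes were. At an unadjusted p of 0.05 the count was 1 of 6, Grm3, where 6.35% of all genes passed. DESeq2's likelihood ratio test of the same model also called 0 of 6.

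Relative to its level, Grm5 had the smallest spread of the members among the less anxious mice. Its level was 232, 218 and 219 CPM in the less anxious mice 3, 7 and 12, then 227, 206, 178 and 258 CPM in the anxious mice 1, 4, 8 and 11, and 214, 197, 182 and 193 CPM in the more anxious mice 2, 6, 9 and 10. Every more anxious mouse lay below every less anxious mouse, while the anxious mice held both the highest and the lowest value. Grm5 was the only one of the 6 members whose less and more anxious mice did not overlap, where 3.91% of all genes tested were lower in every more anxious mouse. No member was higher in every more anxious mouse, where 4.49% of all genes were. The group means were 223 ± 8.06 CPM (n = 3), 217 ± 33.6 (n = 4) and 197 ± 13.2 (n = 4). The fitted log2 fold change of more against less anxious was -0.15 (SE 0.109, 95% interval -0.38 to 0.09), with an adjusted p of 0.760 in the edgeR quasi-likelihood fit. Leaving out mouse 9, the second lowest of all, moved it to -0.06.

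Grm2, a presynaptic autoreceptor of group II, had overlapping values in all groups. It stood at 34.0, 45.6 and 34.7 CPM in the less anxious mice, 38.6, 38.6, 35.8 and 33.2 CPM in the anxious mice and 26.9, 35.8, 46.9 and 29.3 CPM in the more anxious mice, in the same order of mice. The more anxious group held both the lowest mouse (2) and the highest (9). Its log2 fold change of more against less anxious was -0.14 (95% interval -0.52 to 0.24), and it was 0.07 without mouse 7, the highest of the less anxious mice.

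Grm3, the group II receptor also found on astrocytes, was highest in a pair of less anxious mice. The less anxious mice had 26.1, 35.8 and 33.8 CPM, the anxious mice 28.3, 27.2, 23.1 and 24.0 CPM and the more anxious mice 23.9, 28.4, 24.4 and 26.8 CPM. Mice 7 and 12 lay above all the others, and mouse 3 lay inside the range of the more anxious mice. The level in the more anxious was 0.80 times that in the less anxious mice (log2 fold change -0.32, SE 0.122, 95% interval -0.59 to -0.06, unadjusted p = 0.0198 and adjusted p = 0.457, edgeR quasi-likelihood with Benjamini-Hochberg over all genes). This was 1 of 6 members at an unadjusted p of 0.05, where 8.83% of all genes passed in either direction and 3.62% toward lower values. At the adjusted threshold 0 of 6 members passed, where 0.0445% of all genes did. Leaving out mouse 7 gave a log2 fold change of -0.25 (edgeR, unadjusted p = 0.164), and leaving out mouse 12 gave -0.27 (edgeR, unadjusted p = 0.0770).

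Grm4, a group III receptor found on presynaptic terminals, followed the same mice. It was measured at 14.5, 20.6 and 21 CPM in the less anxious mice, 17.3, 13.8, 12.7 and 13.2 CPM in the anxious mice and 16.9, 17.4, 14.6 and 11.4 CPM in the more anxious mice. Mice 7 and 12 were again the highest of all, and mouse 3 again lay among the others. The more anxious mice had 0.788 times the level of the less anxious mice (log2 fold change -0.34, SE 0.170, 95% interval -0.71 to 0.02), with an adjusted p of 0.603 in the edgeR quasi-likelihood fit. Without mouse 12 the log2 fold change was -0.23.

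Grm7, a receptor with low affinity for glutamate placed at the release site, differed little in its means. Values were 73.8, 63.3 and 70.8 CPM in the less anxious mice, 80.5, 63.1, 53.9 and 55.1 CPM in the anxious mice and 67.4, 63.0, 63.9 and 59.0 CPM in the more anxious mice. Mouse 1 was the highest of all and mouse 8 the lowest, both anxious, and the less and more anxious ranges overlapped. The log2 fold change of more against less anxious was -0.10 (95% interval -0.37 to 0.17), and it was -0.04 without mouse 10.

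Grm8, a group III receptor with high affinity for glutamate, varied most. Its values were 19.3, 22.7 and 24.8 CPM in the less anxious mice, 27.9, 16.1, 15.2 and 18.1 CPM in the anxious mice and 15.0, 19.7, 21.2 and 14.8 CPM in the more anxious mice. Mouse 1, anxious, was the highest, as for Grm7, and the more anxious mice 2 and 10 were the lowest. The log2 fold change of more against less anxious was -0.31 (SE 0.210, 95% interval -0.77 to 0.14, adjusted p = 0.737 in the edgeR quasi-likelihood fit). Leaving out 1 mouse moved it from -0.47 (without mouse 3) to -0.16 (without mouse 7).

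**Figure D2:**
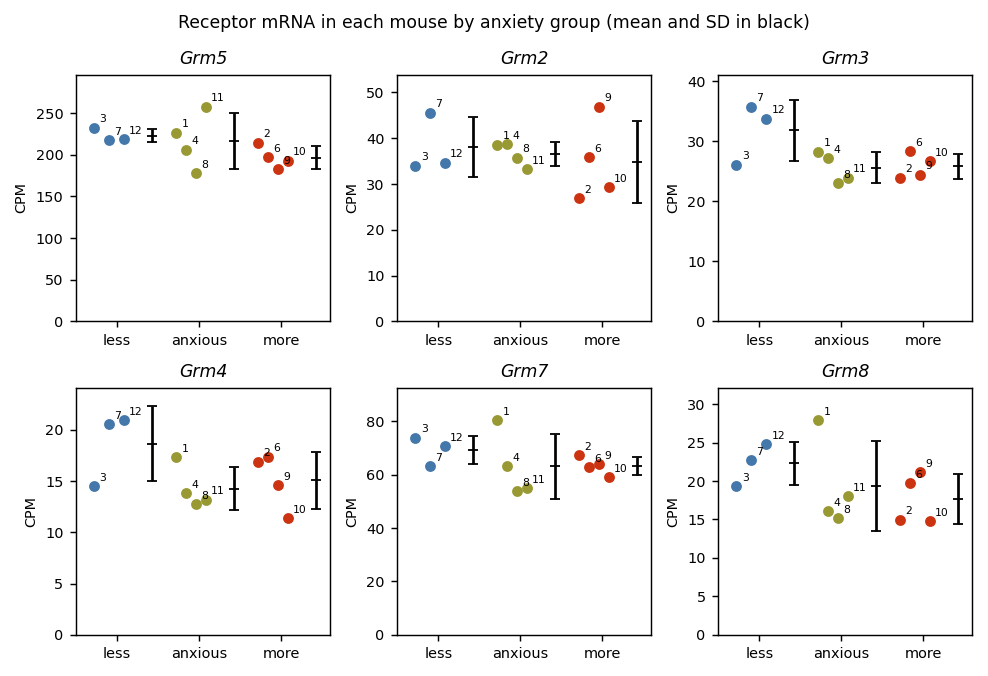
CPM of each receptor gene in every mouse, numbered, for the less anxious, anxious and more anxious groups, with the group mean ± SD in black. Mice 7 and 12 hold the highest Grm3 (35.8 and 33.8 CPM) and Grm4 (20.6 and 21 CPM), and only Grm5 separates less anxious from more anxious mice.

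Across the 6 members, the median log2 fold change of more against less anxious was -0.23, where the median of all genes tested was 0.0037 and 49.5% of genes were below 0. The members share the same libraries, and their values are not independent of each other. Between anxious and less anxious mice all 6 were also below 0, from -0.42 for Grm4 to -0.01 for Grm5, with a median of -0.15. In that comparison 0 of 6 passed the adjusted threshold, where 0.00371% of all genes did. Grm3 at -0.34 (95% interval -0.60 to -0.07) and Grm4 at -0.42 (95% interval -0.78 to -0.05) had unadjusted p-values of 0.0161 and 0.0282 and an adjusted p of 0.987 in the edgeR quasi-likelihood fit. That is 2 of 6 at an unadjusted p of 0.05, where 4.74% of all genes passed in either direction and 2.25% toward lower values. Without mouse 7 these unadjusted p-values were 0.133 and 0.0914, and without mouse 12 they were 0.0637 and 0.13, in the edgeR quasi-likelihood fit. The comparisons of anxious and of more anxious with less anxious share the same less anxious mice. Between more anxious and anxious mice 3 members were higher and 3 lower, 0 of 6 had an unadjusted p under 0.05, where 4.57% of all genes did, and 0 of 6 passed the adjusted threshold, where 0% of genes did.

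**Figure D3:**
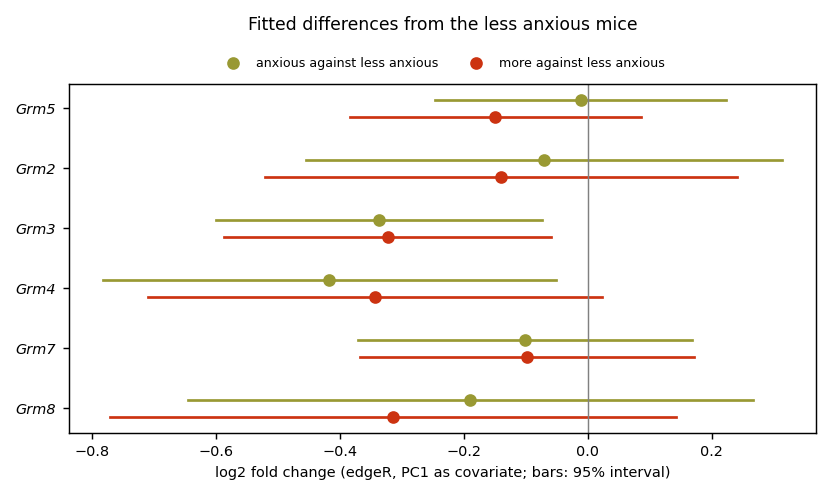
Fitted log2 fold change (point) with its 95% interval (bar) for anxious against less anxious and more against less anxious mice, from edgeR with the PC1 score as a covariate. All 12 points lie below 0, the intervals of Grm3 exclude 0 in both comparisons and that of Grm4 in the first, and none passes adjustment over all genes.

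Mice 7 and 12, with the highest Grm3 and Grm4, also had high sums for markers of some other cells. Summed striatal-type markers were 123 to 418 CPM in the less anxious, 90.7 to 171 in the anxious and 84.8 to 233 in the more anxious mice, with all 5 markers above 0 in every mouse and mice 12 and 7 the highest. Oligodendrocyte markers (Mbp, Mog and Mag, all detected) summed to 1327 to 1745 CPM in the less anxious, 790 to 1737 in the anxious and 1224 to 1571 in the more anxious mice, with mouse 12 the highest. Astrocyte markers (Gfap, Aqp4, Aldh1l1 and Gja1, 4 of 4) summed to 472 to 571, 424 to 501 and 356 to 545 CPM in the same order of groups. Endothelial markers (Cldn5, Pecam1 and Flt1, 3 of 3) were at 80.4 to 122, 53.3 to 112 and 54.4 to 75.1 CPM, and choroid plexus markers (4 of 4) at 10.8 to 15.8, 7.31 to 9.42 and 4.70 to 11 CPM. The less anxious mice did not overlap the more anxious mice in the endothelial sum, nor the anxious mice in the choroid plexus sum. The separations named in this paragraph were picked out of 14 marker sums and were not tested. Central amygdala markers were at 249 to 313 CPM in the less anxious, 358 to 463 in the anxious and 211 to 489 in the more anxious mice, so the less anxious and the anxious mice did not overlap. Mouse 7 was also the highest for the microglial sum at 194 CPM and the excitatory neuron sum at 4112 CPM, and mouse 12 had the lowest excitatory neuron sum at 2731 CPM. Over all 11 mice, neuronal markers summed to 3238 to 4435 CPM, excitatory neuron markers to 2731 to 4112, inhibitory neuron markers to 510 to 816, microglial markers to 132 to 194, thalamic markers to 36.2 to 76.0 and hypothalamic markers to 0.703 to 23.3 CPM, with Hcrt at 0 in some mouse. The part of these differences in the Grm3 and Grm4 values was not tested. Pituitary markers reached 55.7 CPM in mouse 4 against at most 13.7 CPM elsewhere, with Prl and Gh at 0 in some mouse, and mouse 4 was not extreme for any of the 6 receptor genes.

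The behavior measures, unlike the groups, were not derived from the RNA. Each member was fitted against 7 measures, namely the share of time in open maze arms, total maze entries, the share of time and of distance in the light, and the box:zone ratio of the social test over its first 3, 5 and 10 min. The box stands for direct and the zone for more distant contact with a stranger mouse. A high ratio is more direct relative to distant contact, and does not give the amount of either. The 3 ratios are nested in time and are not separate measurements. The slope is the log2 change in level for a rise of the measure by 1 SD. Of 42 relations, 0 passed an adjusted p of 0.05 in the edgeR quasi-likelihood fit, where 0.00796% of all gene and measure pairs did, and DESeq2's likelihood ratio test also called 0. At an unadjusted p of 0.05, 3 of the 42 relations passed, a share near the 6.35% of all pairs that did. All 3 were negative slopes of Grm4 or Grm3 on the box:zone ratio.

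Grm4 was lower where the early box:zone ratio was higher, without passing adjustment. Ordered by the 3-min ratio, which ran from 0.236 in mouse 7 to 1.84 in mouse 9 (mouse 4 has no value), Grm4 was at 20.6, 21, 17.4, 16.9, 17.3, 13.2, 12.7, 11.4, 14.5 and 14.6 CPM in mice 7, 12, 6, 2, 1, 11, 8, 10, 3 and 9. Among these 10 mice, the 5 with the lowest ratios all had more Grm4 than the 5 with the highest. The relation was named for its p over these same values, so the split is not separate support. Mouse 5, which has no anxiety group, does not follow this split, since its ratio was 0.832 and its Grm4 level of 10.0 CPM was the lowest of 12 mice. The slope was -0.20 per SD of 0.490 (SE 0.0677, 95% interval -0.34 to -0.05, unadjusted p = 0.0115 and adjusted p = 0.471, edgeR quasi-likelihood with Benjamini-Hochberg over all genes, n = 10). In that fit 7.65% of all genes passed an unadjusted p of 0.05, 3.11% with a negative slope. On the 5-min ratio the slope of Grm4 was -0.16 (95% interval -0.31 to -0.0038, unadjusted p = 0.0452 and adjusted p = 0.748 in the edgeR quasi-likelihood fit, n = 11), where 6.56% of all genes passed the unadjusted threshold, 3.03% with a negative slope. With mouse 5 added, the 3-min slope was -0.17 (unadjusted p = 0.0540) and the 5-min slope -0.12 (unadjusted p = 0.153), both from edgeR. On the 10-min ratio the slope in the 11 mice was -0.15 (95% interval -0.30 to 0.01).

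Grm3 in the same order of mice was at 35.8, 33.8, 28.4, 23.9, 28.3, 24.0, 23.1, 26.8, 26.1 and 24.4 CPM. Apart from mice 7 and 12, the remaining 8 mice lay between 23.1 and 28.4 CPM with no clear order along the ratio. The slope was -0.13 per SD (SE 0.0563, 95% interval -0.25 to -0.01, unadjusted p = 0.0329 and adjusted p = 0.600 in the edgeR quasi-likelihood fit). With mice 7 and 12 left out, a choice made after seeing the values, the slope of Grm3 on the 3-min ratio was -0.02 (unadjusted p = 0.754) and that of Grm4 -0.11 (unadjusted p = 0.184), in the edgeR quasi-likelihood fit. The 5-min slope of Grm4 was then -0.09 (unadjusted p = 0.201 by the same edgeR test). These are the mice with the highest striatal-type marker sums, whose part in the slopes was not tested.

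**Figure D4:**
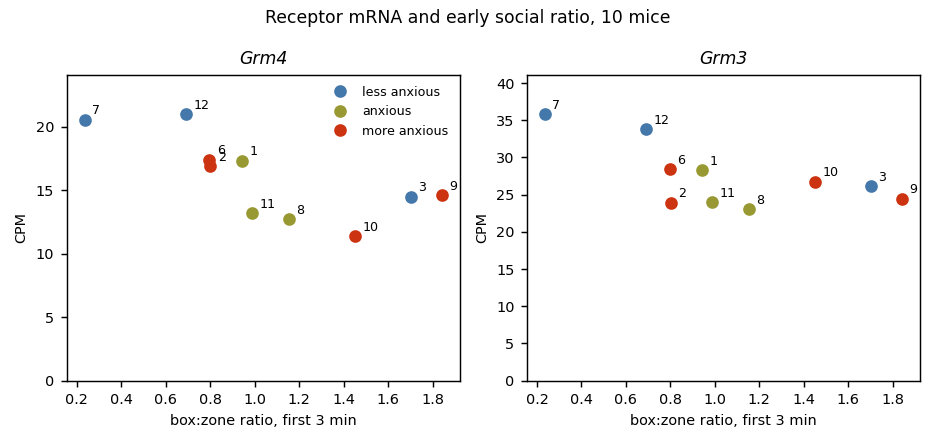
Grm4 and Grm3 CPM against the box:zone ratio of the first 3 min, 1 numbered point for each of 10 mice, colored by anxiety group. Grm4 lies at 16.9 CPM or more in the 5 mice with the lowest ratios and at 14.6 CPM or less in the other 5, while Grm3 stands apart mainly in mice 7 and 12. Both relations were named for their p over these values, so the patterns are not separate support.

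The other 39 relations had unadjusted p-values from 0.0516 up in the edgeR quasi-likelihood fit. On the share of distance in the light all 6 slopes were above 0, from 0.00016 for Grm2 to 0.16 for Grm8 (95% interval -0.0013 to 0.33 for Grm8). On the share of time in the light 5 of 6 were above 0, as were 5 of 6 on open-arm time, where Grm4 had 0.13 (95% interval -0.03 to 0.28) and Grm3 0.12 (95% interval -0.0026 to 0.23). On the 3-min and 10-min box:zone ratios 4 of 6 slopes were below 0, and on the 5-min ratio 5 of 6. Grm5, Grm2 and Grm7 had slopes between -0.05 and 0.07 on all 7 measures.

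**Figure D5:**
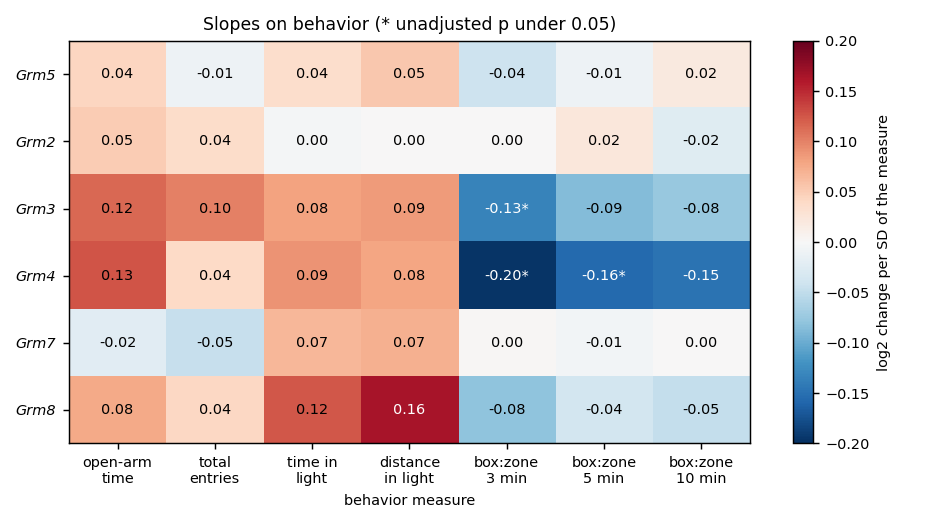
Slope of each receptor gene (rows) on each of 7 standardized behavior measures (columns), as log2 change per SD, with red for positive and blue for negative slopes and a star for an unadjusted p under 0.05. The 3 stars fall on Grm4 and Grm3 in the box:zone columns, from -0.20 to -0.13, and none passes adjustment.

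Over the 11 mice, log2 CPM of the members moved together more often than apart, as a description over libraries that also share depth and tissue makeup. Of 15 pairs, 14 had a positive Pearson r, with a median of 0.364. The highest were Grm3 with Grm4 (r = 0.754, Spearman coefficient 0.700), Grm4 with Grm8 (r = 0.708, Spearman 0.773) and Grm7 with Grm8 (r = 0.662, Spearman 0.591). The lowest was Grm2 with Grm5 (r = -0.19, Spearman -0.25). Grm5 had no r above 0.331 with another member.

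The genes whose pattern over the 11 mice was most like each member were taken from 12159 genes with a mean of at least 5 CPM. Beside the Pearson r of log2 CPM given for each, the Spearman coefficient ran from 0.782 (Grm7 with Zfp827) to 0.964 (Grm8 with Chn2). The closest to Grm3 were Erbb3, a neuregulin receptor (r = 0.936), Adcy5, an adenylyl cyclase abundant in the striatum (r = 0.932), and 8030462N17Rik (r = 0.929). Closest to Grm4 were Penk, which encodes the enkephalin precursor (r = 0.879), Kirrel, an adhesion molecule (r = 0.878), and Arhgef10l, a guanine nucleotide exchange factor (r = 0.878). With 11 mice and this many genes, some high values arise for any pattern.

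Grm2 was nearest to Pwwp2b (r = 0.894), to C1qb, a complement gene of microglia (r = 0.879), and to Gal3st1, which makes the myelin lipid sulfatide (r = 0.878). Grm5 was nearest to Hs6st2, a heparan sulfate sulfotransferase (r = 0.908), Hspa13 (r = 0.892) and Csnk1g1, a casein kinase (r = 0.889). The nearest genes to Grm7 were Sema3c, a secreted guidance protein (r = 0.947), Olfm3 (r = 0.889) and Zfp827 (r = 0.888). Grm8 had the closest partner of all members in Chn2, a Rac GTPase-activating protein (r = 0.960), followed by Xpnpep3 (r = 0.942) and Lynx1, a modulator of nicotinic receptors (r = 0.900).

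Between more and less anxious mice, most genes that supply and clear glutamate also had fold changes below 0. Of 9 genes for release and uptake, 1 was higher and 8 lower, 3 had an unadjusted p under 0.05 (1 higher and 2 lower) and 0 of 9 passed adjustment in the edgeR quasi-likelihood fit, where 8.83% (5.21% higher and 3.62% lower) and 0.0445% of all genes did. Slc1a3, the astrocyte glutamate transporter GLAST, was at 651, 763 and 592 CPM in the less anxious mice, 617, 518, 471 and 550 CPM in the anxious mice and 504, 485, 439 and 466 CPM in the more anxious mice. Every more anxious mouse lay below every less anxious mouse, as for 3.91% of all genes tested. Slc1a3 was named for its p in this same contrast, so the separation is not separate support. Its log2 fold change was -0.50 (SE 0.116, 95% interval -0.75 to -0.25, adjusted p = 0.178, edgeR quasi-likelihood with Benjamini-Hochberg over all genes), and DESeq2's likelihood ratio test of the same contrast gave it an adjusted p of 0.00823. That test called 0.811% of all genes in this contrast, a larger share than edgeR's. Slc1a2, the main astrocyte transporter GLT-1, had a log2 fold change of -0.29 (95% interval -0.58 to -0.0027), and Slc17a7, which loads glutamate into vesicles, 0.44 (95% interval 0.06 to 0.81). Slc1a2 was also lower in every more anxious than in every less anxious mouse. The astrocyte marker sums above overlapped between the groups, and their part in the transporter values was not tested.

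Among 17 genes for group I coupling and scaffolds, 11 had a fold change above 0 and 6 below, 5 had an unadjusted p under 0.05 (3 higher and 2 lower) and 0 of 17 passed adjustment in the edgeR quasi-likelihood fit or by DESeq2. Over all genes 8.83% passed the unadjusted (5.21% higher and 3.62% lower) and 0.0445% the adjusted threshold in edgeR. Homer2, a scaffold that binds the tail of Grm5, was at 43.7, 51.9 and 37.9 CPM in the less anxious mice, 43.5, 39.7, 39.0 and 49.4 CPM in the anxious mice and 60.5, 57.4, 54.8 and 54.0 CPM in the more anxious mice. All 4 more anxious mice lay above the other 7. Over all genes, 4.49% were higher in every more anxious than in every less anxious mouse. Homer2 was named for its p in this same contrast, so the separation is not separate support. Its log2 fold change was 0.35 (95% interval 0.09 to 0.61, adjusted p = 0.412 in the edgeR quasi-likelihood fit). Itpr1, the calcium channel opened by the group I signal, had -0.51 (95% interval -0.94 to -0.09), and Frmpd4, which links Grm5 to Homer, -0.35 (95% interval -0.63 to -0.07). Itpr1 and Frmpd4 were also lower in every more anxious than in every less anxious mouse. Shank1, a postsynaptic scaffold, had 0.26 (95% interval 0.01 to 0.51), and Grasp, a scaffold that binds group I receptors, 0.40 (95% interval 0.01 to 0.79). The list median was 0.04, so these members pointed both ways.

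Among 15 genes for group II and III coupling and partners, 9 were higher and 6 lower, 4 had an unadjusted p under 0.05 (2 higher and 2 lower) and 0 of 15 passed adjustment in the edgeR quasi-likelihood fit, with a list median of 0.04. The shares over all genes were again 8.83% unadjusted and 0.0445% adjusted. Gnai2, an alpha subunit of the inhibitory G protein, had the largest difference of the 3 lists. It was at 119, 149 and 137 CPM in the less anxious mice, 127, 141, 195 and 117 CPM in the anxious mice and 326, 269, 328 and 192 CPM in the more anxious mice. Every more anxious mouse lay above every less anxious mouse, as for 4.49% of all genes, and mouse 10 lay just below the anxious mouse 8. Gnai2 was likewise named for its p in this contrast. The log2 fold change was 0.99 (SE 0.182, 95% interval 0.59 to 1.39), with an adjusted p of 0.110 in the edgeR quasi-likelihood fit and of 0.000152 by DESeq2, which called 0.811% of all genes. Without mouse 10, the lowest of the more anxious mice for Gnai2, the adjusted p of the edgeR quasi-likelihood fit was 0.0330. With any other single mouse left out, no gene of this list passed adjustment in edgeR. Adcy5, an adenylyl cyclase that the inhibitory G proteins restrain, had -0.40 (95% interval -0.69 to -0.10). Adcy9, another adenylyl cyclase, had -0.43 (95% interval -0.83 to -0.03). Pick1, which binds the tail of Grm7, had 0.21 (95% interval 0.0016 to 0.42) and was also higher in every more anxious than in every less anxious mouse.

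Adcy5 was highest in the same pair of mice as Grm3. It stood at 178, 259 and 280 CPM in the less anxious mice, 207, 179, 163 and 166 CPM in the anxious mice and 175, 193, 188 and 178 CPM in the more anxious mice. As for Grm3 and Grm4, mice 7 and 12 lay above all the others and mouse 3 did not.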

How the data were processed

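Amygdala mRNA of 12 mice was sequenced. The authors used cutadapt for trimming, STAR on mm10 for quality control, Salmon for transcript estimates and tximport for the sums per gene. The deposited values are estimated counts (expected counts), given by the authors as whole numbers without normalization for 47729 genes, and 0 values were not whole. Tool versions and annotation release are not given in the sources used here. Salmon divides reads among transcripts, so overlapping or near-identical genes carry more uncertainty. GENCODE M21 (GRCm38) gave names, positions and lengths, with an entry for 47310 genes (99.1%).

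Groups and behavior came from the sample labels. Mouse 5 has no group and enters only its own values and 1 alternative. edgeR 4.0.16 in R 4.3.3 was used with TMM factors, a minimum of 10 reads in total, robust quasi-likelihood F-tests, the PC1 score as a covariate for groups and none for behavior, and Benjamini-Hochberg adjustment over all genes tested. DESeq2 1.42.0 was the alternative tool. log2 CPM used a prior count of 2. Scripts ran in Python 3.11.15 with pandas 2.3.3, numpy 2.4.6 and matplotlib 3.10.9, and fits were tested on simulated counts. Other alternatives covered size factors, count filters, the robust option, the covariate, coding of groups and measures, gene length and each mouse left out.

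The members, the 3 partner lists and the marker lists were chosen with earlier results of these data known. A gene of the group I list and a marker are not reported here and were left out of their lists. Named were all members, behavior relations at an unadjusted p of 0.05, up to 5 list genes at that p for more against less anxious, and the 3 genes most like each member. Each library is a separate mouse. Totals of 31745630 to 45142355 gave the members 409 to 9555 counts per mouse.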

Additional observations from a re-analysis of the deposited data

Results flagged for a closer look

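Of 36 sets of 4 mice examined (the anxious and the more anxious mice, for the 6 receptor genes and the partner genes named), 1 held a mouse far from the others, where chance alone flags about 1 in 20. Grasp, a scaffold of group I receptors, was at 28.6 CPM in mouse 2 of the more anxious mice against 45.5 CPM in the nearest and 46.9 CPM in the highest of the other 3. The gap made up 0.920 of the range, above Dixon's 95% critical value for 4 values. None of the 6 receptor genes had such a mouse in the sets of 4, and the 3 less anxious mice were too few to examine.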

How the results depend on the processing

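The count of members called stayed at 0 under all alternatives run, DESeq2 and each mouse left out included. Of 108 alternative fold changes between more and less anxious mice, 107 kept their direction, with adjusted p-values from 0.244 to 0.987. The exception was Grm2, at 0.072 without mouse 7 (-0.41 to 0.072 over single mice left out); the cause was not tested. Members lower in every more anxious mouse numbered 1 to 4 when 1 of the less or more anxious mice was left out. The count was 4 without mouse 3, 2 without mouse 7 and 1 without mouse 2, 6, 9, 10 or 12. Mouse 3 had the lowest Grm3, Grm4 and Grm8 of the less anxious mice. Fewer mice also overlap less easily, and the share over all genes was not counted with a mouse left out. Of 42 behavior relations, those at an unadjusted p of 0.05 numbered 7 on ranks and 1 with mouse 5 added. They numbered 1 to 5 with 1 mouse left out (5 without mouse 1, 3 or 6 and 1 without mouse 12). On ranks, 1178 of 26963 to 1953 of 26651 of all genes passed per measure. With mouse 5 added, 932 of 27203 to 1798 of 26935 did. With 1 mouse left out, the all-gene count per measure ran from 740 of 26579 to 2876 of 26677. The slope of Grm4 on the 3-min ratio ranged from -0.25 to -0.11, that of Grm3 from -0.18 to -0.02 and the 5-min slope of Grm4 from -0.19 to -0.09. DESeq2 called 1 gene for glutamate release and uptake (Slc1a3) and 1 for group II and III partners (Gnai2), where it called 0.811% of all genes against edgeR's 0.0445%, the latter also without mouse 10 in edgeR (0 to 1 over single mice left out). Unadjusted counts with 1 mouse left out were 1 to 3 for release and uptake, 1 to 5 for group I partners and 2 to 4 for group II and III partners, and 3 group I partners passed with only the less and more anxious mice. Over all genes, 1580 of 26650 (without mouse 7) to 2493 of 26687 (without mouse 3) passed with 1 mouse left out. With only the less and more anxious mice, 2236 of 25657 genes did. Coding transcript length gave 39.4, 31.9, 12.1, 8.31 and 4.44 CPM per kb for Grm5, Grm7, Grm2, Grm8 and Grm4. With 3 or 4 mice a group the intervals were wide, and the part of depth in their width was not tested. No paired analysis was possible because the groups share no replicate numbers.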

Other observations

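Mouse 5, which the labels put in no anxiety group, stood at the ends of the range for 3 receptor genes when scaled together with the other 11 mice. Its Grm4 level of 10.0 CPM was the lowest of 12, with the others at 11.4 to 21 CPM, while its 3-min box:zone ratio of 0.832 was the fifth lowest of the 11 mice with a value. Its Grm3 level of 37.7 CPM was the highest of 12, above the 23.1 to 35.8 CPM of the others, so in this mouse the 2 genes did not move together as they did over the 11. Grm7 was also the highest of 12 at 83.4 CPM, against 54.0 to 80.6 CPM. Grm5 at 239 CPM, Grm2 at 30.0 CPM and Grm8 at 18.2 CPM lay inside the range of the other mice.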
